A study of Mus musculus with 2 samples.

Results

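Retained-intron transcripts are transcript models in the annotation that carry sequence which other transcripts of the same gene remove as an intron. In total RNA of mouse hippocampus, 218 of them reached at least 10 transcripts per 1000000 (TPM) in both libraries and in both deposited sets of transcript estimates. They were drawn from 21848 models of the retained_intron type among 141767 annotated transcripts, so 0.998% of the class passed, against 10.5% of protein_coding transcripts and 4.87% of all. The members are therefore defined by their TPM, and their TPM levels are given as a description with no test. They belonged to 199 host genes. For 216 members the host was a protein_coding gene, and for 2, A330023F24Rik-204 and Gm43305-201, it was a processed_transcript gene.

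The tissue was labelled as a layer of hippocampus from female B6CASTF1/J mice, a first-generation hybrid of a C57BL/6J and a CAST/EiJ parent, aged 18 to 20 months. Each library used 300 ng of total RNA with ERCC spike-in RNAs, and the single group held 2 libraries, numbered as biological replicates 1 and 2 and untreated as far as the labels tell. Both carry 1 donor label and separate biosample labels, so whether they came from separate animals was not analysed here, and the spread between them may be technical. With 1 group there was no contrast and no p-value. Gene-assigned expected counts were 35358140 in replicate 1 and 36307291 in replicate 2. Markers of CA1 (Wfs1 58.5 and 54.5 TPM) and of dentate granule cells (Prox1 33.8 and 33.7 TPM) were present, as was the nuclear RNA Malat1 at 3738 and 3467 TPM. Markers of other cells differed between the libraries in both directions. Ttr of choroid plexus (150.4 and 49.1 TPM) and Mbp of oligodendrocytes (621 and 443 TPM) were higher in replicate 1, and summed markers of red blood cells (228 and 352 TPM) and of meningeal fibroblasts (45.5 and 72.9 TPM) were higher in replicate 2. Their part in the library differences given here was not tested. In such bulk tissue, fewer cells of a type and less RNA per cell cannot be told apart.

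Introns are cut out of pre-mRNA by the spliceosome, which reads the GT at the start of the intron and the AG at its end. An RNA that keeps an intron may wait in the nucleus, be finished later, or meet an in-frame stop codon and be destroyed by nonsense-mediated decay. Neurons are known to hold intron-containing transcripts that are spliced on stimulation, and genes for splicing factors adjust their own levels by retaining introns. The annotated class is broader than this process, since many of its models were built from partial cDNAs.

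Across the members, RSEM-layout TPM ran from 10.1 to 168 with a median of 18.1 in replicate 1, and from 10.1 to 164 with a median of 16.8 in replicate 2. In the kallisto-layout tables the lowest value was 10.7 and the median 30.7 in replicate 1, and 10.4 and 30.7 in replicate 2. All retained_intron models together took 3.15% and 2.93% of the RSEM-layout TPM in replicates 1 and 2, and the 218 members took 0.576% and 0.544%. In the kallisto layout the class took 6.29% and 6.21%, and the members 1.22% and 1.25%. The smallest expected count behind a member was 110 in replicate 1 and 108 in replicate 2, and the median was 522 and 526. Just inside the minimum, the lowest of the 4 TPM values was 10.1 for Adgrl3-228, for Mdp1-202 and for Gprasp2-205. Just outside, it was 9.97 for Slc44a5-203 and for Tecr-209 and 9.92 for Nsmf-212.

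The annotated structures of the members overlapped, since some, such as Tnpo2-205, both held a whole intron and started in one. Only 57 of 218 held a whole intron of a protein_coding transcript of the gene, and among 13167 other retained_intron models of genes at 10 TPM or more the share was 30.1%. When at least 50% of an intron was enough, 88 of 218 members qualified, beside 5919 of the 13167 other models. The commoner structure was a transcript that began inside an intron. Of the 216 members in genes with a coding transcript, 115 had their first base in an intron (53.2%), against 43.1% of 13122 other models. In these members the stretch outside coding exons at the 5′ end had a median of 99 bases. Whether it ran straight into a coding exon was not measured over all of them. Ending inside an intron was seen in 61 members (28.2%), against 54.0% of the other models. Of the 12 members of highest TPM, 9 started in an intron and 2 held a whole intron.

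**Figure D1:**
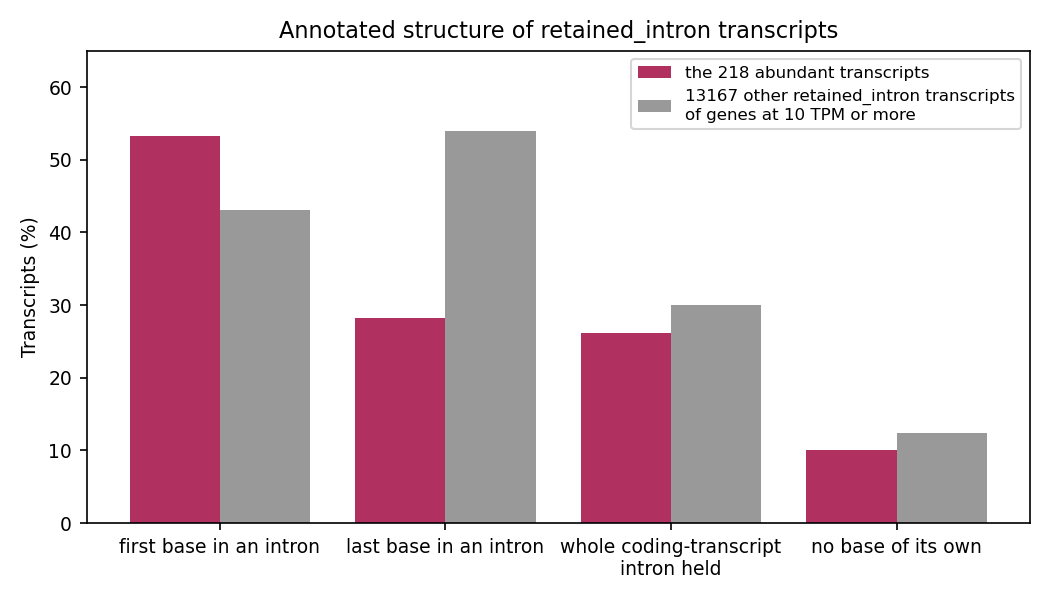
Percent of transcripts (y axis) with each annotated structure, for the 218 abundant transcripts and for 13167 other retained_intron models of genes at 10 TPM or more. The first 2 pairs of bars use the 216 and 13122 transcripts whose gene has a coding transcript. Abundant transcripts end in an intron in 28.2% of cases and the others in 54.0%.

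Whole introns held by members with the highest share of their gene are shown because they are the stretches by which retention would be read. They are mm10 sequence of GENCODE M21 transcripts, written from 5′ to 3′ with coordinates of the intron. Capitals mark the first and last pair of bases and, where there is one, the first stop codon in the reading frame of the coding transcript.
Prelid1-202 (chr13:55324445-55324526, plus strand): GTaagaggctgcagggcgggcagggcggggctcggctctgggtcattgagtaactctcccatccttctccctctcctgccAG
Mrps26-201 (chr2:130564228-130564307, plus strand): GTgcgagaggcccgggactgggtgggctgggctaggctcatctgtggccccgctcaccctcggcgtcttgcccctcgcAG
Mrps24-201 (chr11:5707556-5707623, minus strand): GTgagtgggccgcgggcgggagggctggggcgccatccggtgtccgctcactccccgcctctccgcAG
Rps20-201 (chr4:3835292-3835483, minus strand): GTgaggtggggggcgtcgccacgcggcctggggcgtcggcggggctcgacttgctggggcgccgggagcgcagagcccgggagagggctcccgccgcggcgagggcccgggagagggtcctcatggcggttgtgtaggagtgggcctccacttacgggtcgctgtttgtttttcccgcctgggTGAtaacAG
Carmil2-201 (chr8:105690920-105691082, plus strand): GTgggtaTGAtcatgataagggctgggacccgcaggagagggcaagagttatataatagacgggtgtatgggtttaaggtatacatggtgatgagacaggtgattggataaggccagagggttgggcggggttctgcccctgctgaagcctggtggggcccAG
Ncl-202 (chr1:86352320-86352509, minus strand): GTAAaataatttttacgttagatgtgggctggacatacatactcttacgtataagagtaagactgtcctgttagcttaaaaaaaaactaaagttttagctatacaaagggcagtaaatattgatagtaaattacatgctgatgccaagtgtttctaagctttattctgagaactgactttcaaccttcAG
The introns of Prelid1-202, Mrps26-201 and Mrps24-201 were 82, 80 and 68 bases long and held no in-frame stop. In Carmil2-201 a stop codon ended at base 10 of 163, and in this intron of Ncl-202 it ended at base 4 of 190, next to the opening GT. In Rps20-201 it came at base 186 of 192, just before the closing AG.

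Over all members, 85 introns were held, counting overlapping alternatives apart. Of these, 67 had no base in an exon of another coding transcript of the gene (78.8%, against 82.7% in the other models), 11 had some and 7 lay wholly in such exons. The introns shown had none. By place, 71 lay between coding exons, 9 before the start codon and 5 after the stop codon. They were mostly internal (69), with 12 first and 4 last introns, and had a median length of 274 bases and a median GC content of 54.9%. For introns of the other models the medians were 238 bases and 51.9%. All but 3 began with GT and ended with AG. The pyrimidine share of 20 bases before the AG, leaving out the last 3 of the intron, had a median of 75% in members and 70% in the others. An in-frame stop was found in 54 of 71 held coding introns (76.1%), and in 88.5% of 5762 in the other models. Of the 17 without a stop, 6 had a length divisible by 3 and so kept the frame open. The stop ended at a median of base 58 in members and of base 36 in the other models. For 5 of the 85 introns the coding model lacks its start, so its frame is less sure.

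A start inside an intron is shown by the intron stretches at the 5′ end of highly abundant members, which end at the AG (capitals) before a coding exon.
Itm2b-202 (chr14:73368428-73368505, minus strand): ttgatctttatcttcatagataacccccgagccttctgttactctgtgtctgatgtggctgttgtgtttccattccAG
Rps16-203 (chr7:28350924-28350991, plus strand): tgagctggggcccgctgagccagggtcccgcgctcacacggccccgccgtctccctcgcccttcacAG
Rps26-202 (chr10:128626241-128626424, minus strand): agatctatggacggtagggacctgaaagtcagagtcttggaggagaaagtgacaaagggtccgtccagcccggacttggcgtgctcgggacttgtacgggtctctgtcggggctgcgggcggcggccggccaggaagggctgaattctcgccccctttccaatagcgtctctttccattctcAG
Atp6v1d-202 (chr12:78845305-78845391, minus strand): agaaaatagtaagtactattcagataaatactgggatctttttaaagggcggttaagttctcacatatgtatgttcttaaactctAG
These stretches of 78, 68, 184 and 87 bases hold an intron's end without its beginning. Bases in no exon of any other transcript of the gene made up 8.34% of Itm2b-202, 13.1% of Rps16-203, 31.4% of Rps26-202 and 11.2% of Atp6v1d-202. Over the members, the median of such bases was 13.8%, against 34.0% for the other models. None were found in 22 members (10.1%), against 12.4% of the other models.

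Ribosomal proteins, which build the small and large subunits of the ribosome, supplied 8 members from 7 of 66 listed genes at 10 TPM with such a model (10.6%), against 4.05% of all 4913 genes of that kind. Genes were not matched by level in this or the later lists. Since the minimum is an absolute TPM, a model in a highly expressed gene reaches it at a smaller share of that gene. The median gene TPM of hosts was 88.4 in the RSEM layout. Rps16-203 reached 133 TPM in replicate 1 and 119 in replicate 2, or 60.2% and 61.7% of its gene. This share of the gene's RSEM-layout TPM is deposited as IsoPct. The gene's other large form was also a retained_intron model, Rps16-202, at 84.0 and 67.2 TPM, while the coding transcript Rps16-201 stood at 3.70 and 6.39. In the kallisto layout the order of the other forms was reversed, with Rps16-201 at 82.1 and 80.8 TPM and Rps16-202 at 3.65 and 0.436, and Rps16-203 led in both layouts.

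Rps26-202 had 128 and 112 TPM and the highest IsoPct of all members, 95.9 and 93.6. Its coding transcript Rps26-201 had 4.49 and 6.84 TPM. In the kallisto layout, however, Rps26-202 took 35.2% and 57.4% of the gene, so there it led in replicate 2 and not in replicate 1. Rps20-201 had 96.55 and 104.4 TPM and an IsoPct of 79.2 and 82.3. In the kallisto layout it took 46.5% and 47.7% and did not lead, since Rps20-202 of the same gene took 52.2% and 51.0%. Its coding transcript Rps20-203 is annotated with 3706 bases against 582 in Rps20-201, and stood at 5.90 and 5.60 TPM in the RSEM layout. The second member of that gene, Rps20-202, was at 19.5 and 16.9 TPM in the RSEM layout and 189 and 204 in the kallisto layout.

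Rps19-206 (77.2 and 69.0 TPM), Rpl15-206 (49.6 and 47.9 TPM) and Rpl31-204 (47.3 and 37.1 TPM) took smaller shares, with an IsoPct of 29.5 to 31.04, 29.2 to 33.3 and 16.8 to 22.8. Rpl23a-202 was the lowest, at 10.8 and 17.0 TPM. Ribosomal protein genes have many near-identical processed pseudogenes in the genome, and how the authors' programs divided such reads was not tested.

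Several named members come from nuclear genes for mitochondrial proteins, for which no list was set, so no count is given. Prelid1-202, from a gene for a mitochondrial lipid transfer protein, had 54.2 TPM in each library and an IsoPct of 91.6 and 92.9. Mrps26-201, from a small-subunit mitochondrial ribosomal protein gene, had 31.7 and 28.5 TPM with an IsoPct of 91.7 and 91.9. Its kallisto-layout share was 91.9% and 92.4%, so both layouts gave this model nearly all of the gene's TPM. As a mean share of RSEM expected counts, Mrps26-201 took 71.8%. Mrpl57-202 (IsoPct 85.2 and 83.1), Mrps24-201 (69.4 and 80.2) and Mrps25-201 (61.5 and 63.5) were further leading models of mitochondrial ribosomal protein genes. Of these 4, Mrps24-201 had the widest gap between libraries in IsoPct.

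Chchd10-202, from a gene for a protein of the mitochondrial intermembrane space, had 86.3 and 92.8 TPM and an IsoPct of 54.0 and 59.0. Ndufb4-202, from a gene for a subunit of respiratory complex I, had 22.8 and 17.0 TPM and an IsoPct of 67.8 and 59.7. The kallisto layout placed Ndufb4-202 at 159 and 155 TPM, with 87.3% and 87.1% of the gene.

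Itm2b-202 had the highest mean TPM of all members, 168 in replicate 1 with a deposited interval of 153 to 175, and 164 in replicate 2 with an interval of 150 to 170. The intervals of the libraries therefore overlapped. The host encodes a membrane protein whose mutation causes familial dementias in humans, and the coding transcript Itm2b-201 stood above it at 236 and 225 TPM. Atp6v1d-202, from a gene for a subunit of the vacuolar proton pump, had 74.9 and 64.7 TPM and led its gene with an IsoPct of 68.6 and 65.6. Ctsb-202, from the gene for the lysosomal protease cathepsin B, had 93.4 and 95.5 TPM and an IsoPct of 55.4 and 57.0.

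**Figure D2:**
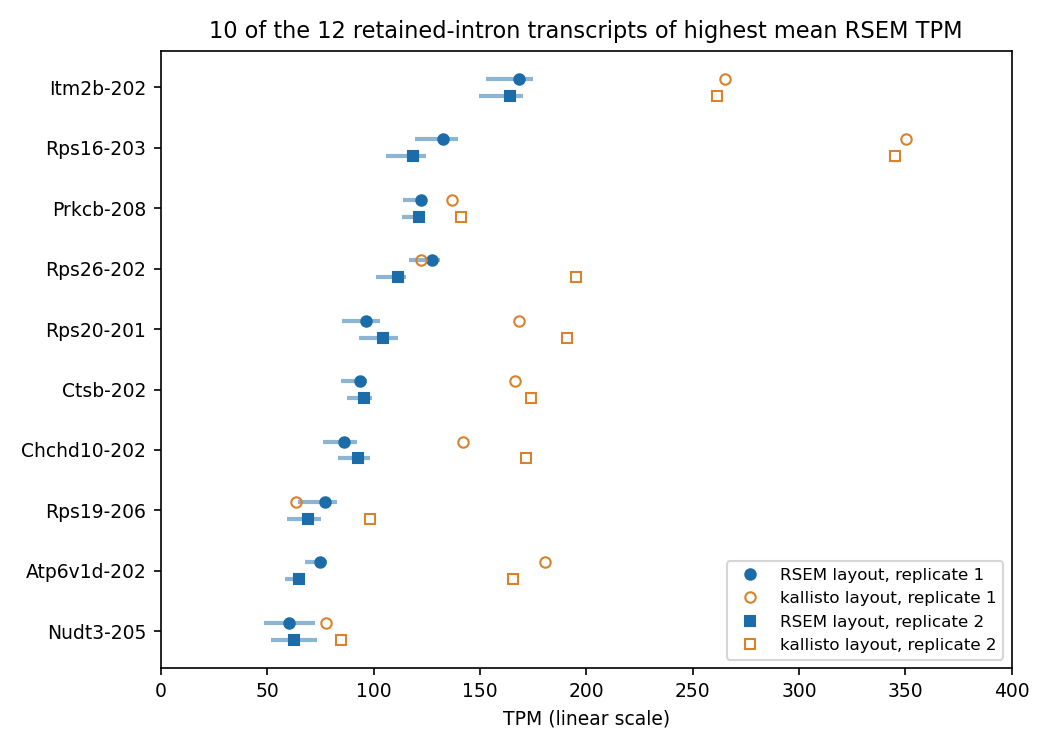
TPM on a linear x axis for 10 of the 12 members of highest mean RSEM-layout TPM, with filled points for the RSEM layout, open points for the kallisto layout, circles for replicate 1 and squares for replicate 2. Bars are the deposited interval of the RSEM-layout TPM. Itm2b-202 lies at 168 and 164, and the kallisto-layout values of Rps16-203 reach 350.3 and 345.

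Prkcb-208 and Nudt3-205 were also among the 12 members of highest TPM. Prkcb-208, in the gene for protein kinase C beta, had 122 and 121 TPM and an IsoPct of 40.8 and 42.2. It is a single exon of 955 bases that begins inside an intron. Nudt3-205, from a gene for an inositol polyphosphate phosphatase, had 60.4 and 62.8 TPM and an IsoPct of 28.5 and 30.9. Both were nearly equal in the 2 libraries.

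Among splicing genes, members had a median IsoPct of 23.3 in SR protein genes, 9.45 in hnRNP genes and 14.01 in other splicing and RNA-binding genes, beside 23.8 over all members. SR proteins, which bind exons and recruit the spliceosome, had 3 hosts among 10 genes, hnRNP genes 2 of 19, and other splicing and RNA-binding genes 6 of 44. The shares of 30%, 10.5% and 13.6% compare with 4.05% of all such genes. Genes picked because their regulated retention is known had 3 hosts of 12 (25%). Of these hosts, Srsf5 is also counted in the SR protein list and Clk4 among the other splicing genes. These lists were chosen with results of these data known, so the counts describe them only.

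Srsf5-212, from the gene for the SR protein SRSF5, had 28.3 and 25.3 TPM and an IsoPct of 25.2 and 21.4. It lay close to the processed_transcript model Srsf5-206 (33.2 and 35.1 TPM) and the coding transcript Srsf5-205 (20.9 and 27.6 TPM). It held an intron of 1229 bases between coding exons. Rsrp1-204, in a gene for an arginine- and serine-rich protein, had 42.1 and 47.9 TPM, an IsoPct of 40.7 and 46.1, and held an intron of 1302 bases. The first 60 bases of the intron in Srsf5-212 show where an in-frame stop (capitals) is met.
Srsf5-212 (chr12:80947866-80947925, plus strand): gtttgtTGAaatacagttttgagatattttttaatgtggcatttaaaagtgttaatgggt
The stop codon ended at base 9.

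Srsf2-203 (19.9 and 18.1 TPM, IsoPct 29.6 and 29.0) held introns beyond the stop codon. Srsf11-208 (11.9 and 10.6 TPM) held no whole intron. Clk4-207, from the gene for a kinase that phosphorylates SR proteins, had 13.2 and 10.5 TPM and led its gene with an IsoPct of 27.4 and 23.3. It held no whole intron of a coding transcript. Ogt-204, from the gene for O-GlcNAc transferase, had 14.1 and 12.6 TPM and an IsoPct of 17.9 and 17.2. The only coding-transcript intron that Ogt-204 held whole, of 107 bases, is all exon in another coding transcript of the gene. Arglu1-204, in a gene for an arginine- and glutamate-rich splicing modulator, had 19.0 and 17.5 TPM, led its gene with 51.4 and 53.7 IsoPct, and held the longest intron, 2280 bases.

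The hnRNP members were Hnrnpa2b1-211, Hnrnpa2b1-208, Hnrnpl-206 and Hnrnpl-205, with mean RSEM-layout TPM between 15.3 and 20.7 and mean IsoPct between 8.99 and 10.9. Among other RNA-binding genes were Snrnp70-216 (28.1 and 26.8 TPM), Snrnp70-209 (16.2 and 14.8), Srrm2-209 (28.9 and 25.4), Srrm2-207 (10.4 and 10.8) and Rbm39-205 (16.3 and 13.5). None of these 5 led its gene.

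Genes that contain small nucleolar RNAs in their introns hosted members in 6 of 143 cases (4.20%), close to the 4.05% of all genes. Ncl-202, from the gene for nucleolin, had 38.1 and 34.6 TPM and an IsoPct of 67.9 and 66.1. It held introns of 190 and 492 bases, and its coding transcript Ncl-201 had 13.5 and 13.6 TPM. Ddx39b-204, from the gene for an RNA helicase of splicing and export, had 24.9 and 24.7 TPM. Tnpo2-205, from a nuclear import receptor gene, had 11.4 and 11.8 TPM. No host was found among 38 translation factor, 10 chaperone or 2 long noncoding nuclear RNA genes at 10 TPM with a retained_intron model.

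Members of synaptic genes had a median IsoPct of 10.03 in the postsynaptic list and 8.51 in the release list, beside 23.8 over all members. Of 22 postsynaptic genes 4 hosted members (18.2%), and of 20 genes of synaptic release also 4 (20.0%), against 4.05% of all genes. These genes were not matched by level to all genes, and the part of gene level in these shares was not tested. Gria2, which encodes the AMPA receptor subunit that limits calcium entry, was the single host of 3 members, Gria2-208 at 22.96 and 29.28 TPM, Gria2-206 at 26.1 and 23.1, and Gria2-204 at 13.6 and 13.2. Their IsoPct lay between 5.45 and 12.2, below the coding transcript Gria2-202 at 141 and 132 TPM. Shank1-206, from a postsynaptic scaffold gene, had 28.4 and 22.1 TPM, and Grin2a-204, from an NMDA receptor subunit gene, had 14.7 and 13.8 TPM.

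In the release group, Sncb-204, from the beta-synuclein gene, had 52.2 and 52.8 TPM, Dnm1-211, from the gene for the endocytic GTPase dynamin-1, had 33.2 and 29.4, Slc17a7-203, from the gene for the vesicular glutamate transporter VGLUT1, had 15.8 and 13.4, and Napa-206, from the gene for alpha-SNAP, had 10.9 and 14.4. Slc17a7-203 held 7 annotated introns, some of them alternatives of each other, and took 2.92% and 2.63% of its gene.

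Of 14 listed glycolytic genes at 10 TPM with a retained_intron model, 2 hosted members (14.3%), against 4.05% of all such genes. These were Eno2 and Gpi1, with 2 members each and mean IsoPct from 4.31 for Gpi1-203 to 12.9 for Eno2-210. Eno2-210, from the neuronal enolase gene, had 61.7 and 45.0 TPM and no base of its own. Actb-205, from the beta-actin gene, had 13.4 and 11.1 TPM and the lowest share of all members, 1.05% and 0.920%.

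The share of the host gene spanned nearly the full scale. Mean IsoPct had a median of 23.8, with quartiles of 13.2 and 38.8 and extremes of 0.985 and 94.7. In 27 members it exceeded 50 in both libraries, and in 28 it was below 10 in both. As the share of RSEM expected counts, which does not divide by length, the median was 11.9%. The leading coding transcript was a median of 2.42 times as long as the member. In hosts of members that led their gene that ratio had a median of 2.32, and in hosts of the others 2.43.

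In the RSEM layout, 55 of 218 members were the most abundant transcript of their gene in both libraries. Of all 6898 transcripts that passed the same TPM rule, 75.7% led their gene. Leading by TPM is not leading by reads, since TPM divides by length. Of 53 leading members with a coding transcript in the gene, 19 had more expected counts than the leading coding transcript in both libraries. Ctsb-202, for one, had 1673 and 1828 expected counts, against 8821 and 9045 for Ctsb-201. In both layouts and both libraries 35 of 218 members led, against 66.7% of all 6898 transcripts. Of these 35, 12 held a whole coding intron and 18 began in an intron. By TPM they were headed by Rps16-203, Ctsb-202, Atp6v1d-202, Syne1-207, Prelid1-202, Gabarapl2-203, Ncl-202, Mrps26-201, Ankib1-204, Gigyf2-220, Mrpl57-202 and Carmil2-201.

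Syne1-207, in the gene for a giant nuclear envelope spectrin-repeat protein, had 60.7 and 55.5 TPM with the largest expected counts of all members, 8229 and 8034. It is 5412 bases long and spans an intron of 1891 bases of 1 coding transcript, all of which is exon in another coding transcript of the gene. Gabarapl2-203, from a gene for an autophagy protein, had 44.2 and 47.5 TPM and an IsoPct of 49.99 and 52.18. Ankib1-204, from a ubiquitin ligase gene, had 30.3 and 29.8 TPM and an IsoPct of 60.6 and 62.4. Gigyf2-220, from a gene for a translational repressor, had 22.6 and 26.5 TPM with an IsoPct of 40.7 and 46.4. Carmil2-201, from a gene for a regulator of actin capping, had 24.0 and 20.7 TPM and 75.83 and 75.01 IsoPct. The rest of Carmil2 was nearly all a second retained_intron model, Carmil2-202, at 7.63 and 6.84 TPM, and the coding model Carmil2-203 was at 0.0200 and 0.0400 TPM.

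Other members among the 12 highest shares were Ptges2-203, from a prostaglandin E synthase gene, with an IsoPct of 75.8 and 74.3, and Ppp1r14b-202, from a gene for a phosphatase inhibitor, with 60.1 and 72.7. Ptges2-203 had 12.67 and 10.96 TPM and Ppp1r14b-202 had 15.0 and 19.2. As a mean share of RSEM expected counts, Ptges2-203 took 29.5%, Mrpl57-202 took 44.6% and Atp6v1d-202 took 28.7%, each over 1.5 times below its mean IsoPct. In the kallisto layout Ppp1r14b-202 took 26.4% and 31.7% of its gene and did not lead it. Gm43305-201, in a gene without coding transcripts, had 17.2 and 15.4 TPM and 87.4 and 90.6 IsoPct. It is a single exon of 4901 bases.

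**Figure D3:**
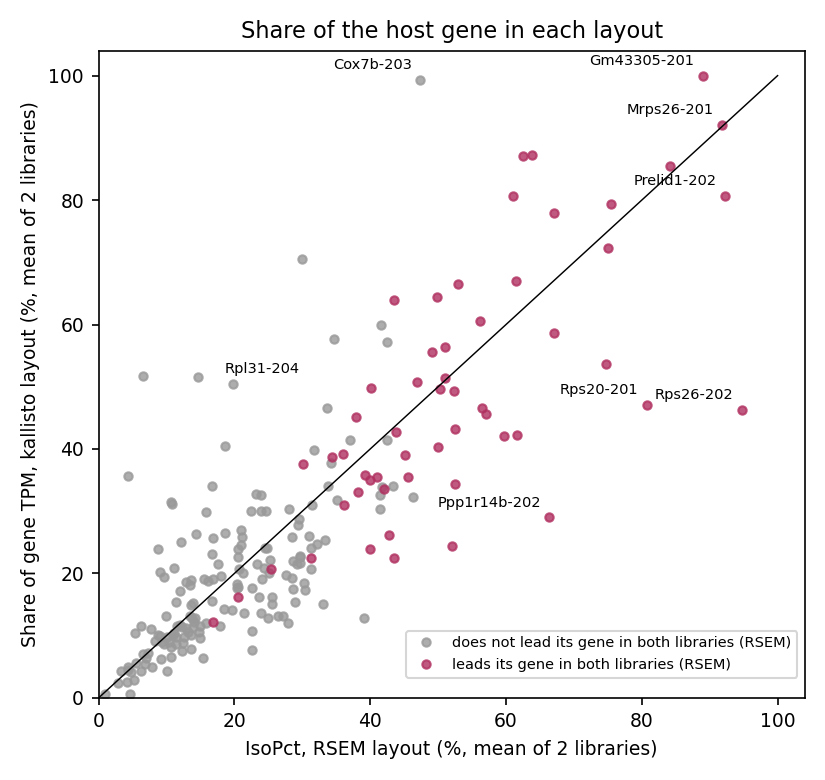
Share of the host gene in the RSEM layout (IsoPct, x axis, %) against the share of gene TPM in the kallisto layout (y axis, %), each the mean of both libraries, for 218 members. Red points lead their gene in both libraries in the RSEM layout and the line marks equal shares. Rps26-202 lies well below the line and Cox7b-203 well above it.

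Shares lay closer between libraries than between layouts. IsoPct differed between libraries by a median of 1.55 percentage points, and by 5 points or less in 197 members. The largest gap was 15.2 points, in Taf10-202 (57.5 and 42.3), from a gene for a subunit of the transcription factor TFIID. Between layouts the median gap was 5.21 points, and 161 members were within 10 points. Pearson's r across the 218 members was 0.988 between libraries and 0.817 between layouts, as a description only, since the values share reads and models.

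In level, 177 members (81.2%) were within 1.2-fold between libraries, compared with 90.5% of all transcripts at the rule. The median absolute log2 ratio was 0.15 for members and 0.09 for all. The median expected count was 515 for members and 1652 for all transcripts, so members rested on fewer reads. By direction, 145 members were higher in replicate 1 and 73 in replicate 2. The median log2 ratio of replicate 2 over replicate 1 was -0.09, close to the -0.06 of all transcripts. Deposited TPM intervals, whose level is not given in the sources used here, did not overlap between libraries for 27 of 218 members, against 13.3% of all transcripts.

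A difference over 1.5-fold was seen in 6 members, against 0.870% of all 6898 transcripts. Of these, 4 are described here. C2cd2l-205, from a gene for a lipid transfer protein at membrane contact sites, had 18.5 and 10.4 TPM. Kctd17-207, from a ubiquitin ligase adaptor gene, had 17.2 and 11.1, and Ttyh1-211, from a gene for a membrane protein of glia and neurons, had 65.5 and 43.7. These 3 were higher in replicate 1, a direction past 1.5-fold in 0.435% of all transcripts.

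Rpl23a-202 (10.8 and 17.0 TPM) was higher in replicate 2, again against 0.435% of all transcripts. The 2 intervals of Rpl23a-202, 5.08 to 20.4 and 9.40 to 28.6, overlapped widely, and the width averaged 127% of its TPM. Of these 4, only Rpl23a-202 was past 1.5-fold, with an unchanged direction, in kallisto-layout TPM as well. With 1 group of 2 libraries, none of these differences has a replicate check.

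**Figure D4:**
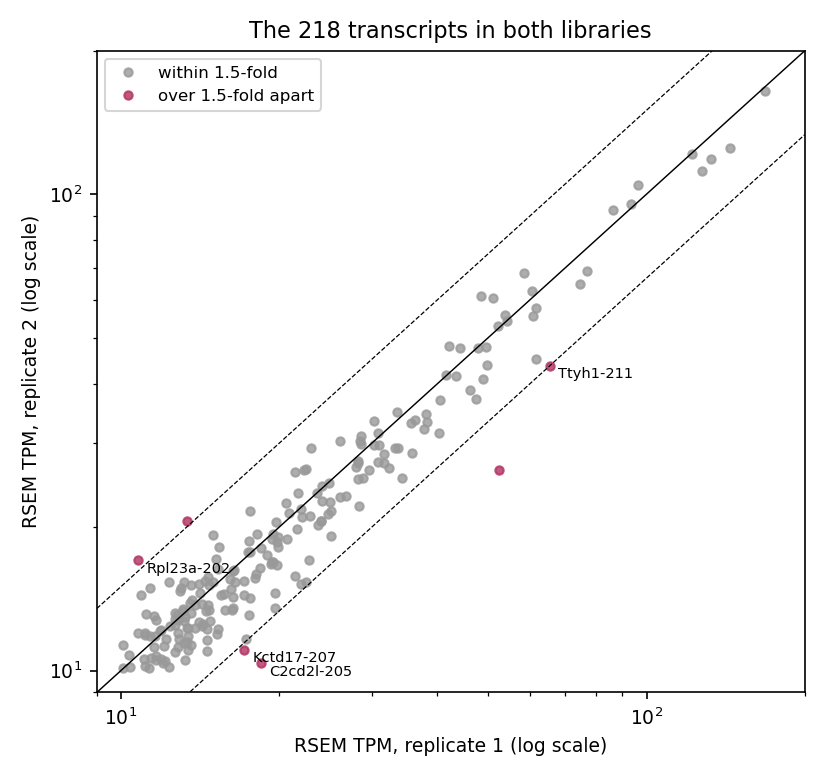
RSEM-layout TPM of the 218 members in replicate 1 (x axis) and replicate 2 (y axis), both on log scales. The solid line marks equal values and dashed lines 1.5-fold, and 6 transcripts, 4 of them named, lie outside them, with Ttyh1-211 at 65.5 and 43.7.

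Next in size among members higher in replicate 1 was Ly6h-208 (17.3 and 11.7 TPM), from the gene for a GPI-anchored modulator of nicotinic receptors. Among those higher in replicate 2, next were Napa-206 (10.9 and 14.4), Huwe1-207 (11.4 and 14.9) of a ubiquitin ligase gene and Ppp1r14b-202 (15.0 and 19.2). All 4 stayed below 1.5-fold. The Huwe1 model also contains the microRNA gene Mir3113, and A330023F24Rik-204 (13.1 and 13.3 TPM) contains Mir29b-2 and Mir29c.

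Layouts differed far more than libraries. Kallisto-layout TPM was higher than RSEM-layout TPM in 197 of 218 members, and in 6454 of all 6898 transcripts at the TPM rule. For members the median log2 ratio was 0.72, or 1.65-fold. That is mostly a shift of the tables, since all 6898 transcripts had a median of 0.64. After removing the common shift in each library, 31 members were over 2-fold apart in both libraries, against 6.03% of all transcripts. Of these, 24 were higher in the kallisto layout, against 3.46% of all transcripts, and 7 in the RSEM layout, against 2.57%. The minimum of 10 TPM in both layouts leaves out models low in either, so both counts depend on it. The RSEM layout alone gave 335 members and the kallisto layout alone 795. With a pseudocount of 1, the median log2 layout ratio was 0.69 for the 218 members and 0.36 for members by the RSEM layout alone.

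Of the 24 that were higher in the kallisto layout, 3 were ribosomal protein members. Rpl23a-202 had 173 and 271 TPM in the kallisto layout, and Rpl31-204 had 434 and 438. The coding transcript Rpl31-202 had 86.9 and 105 TPM in the RSEM layout and was listed at 0 in both libraries in the kallisto layout. Rps20-202 and Gm43305-201 were also among the 5 largest shifts in this direction, the latter with 163 and 161 TPM. Cox7b-203, from a gene for a subunit of cytochrome c oxidase, went from 53.8 and 55.8 TPM to 333 and 337, where it held 99.5% and 99.3% of the gene.

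Toward the RSEM layout, Trf-209, from the transferrin gene, had 43.3 and 41.6 TPM against 14.7 and 24.3 in the kallisto layout. Ndufa10-204, from a complex I gene, had 23.7 and 23.6 TPM against 11.05 and 11.08. Ank2-216, from the ankyrin-B gene, had 46.1 and 38.9 TPM against 27.6 and 21.7. Srgap3-201, from a gene for a Rac GTPase-activating protein, had 32.4 and 26.6 TPM against 24.2 and 14.9.

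**Figure D5:**
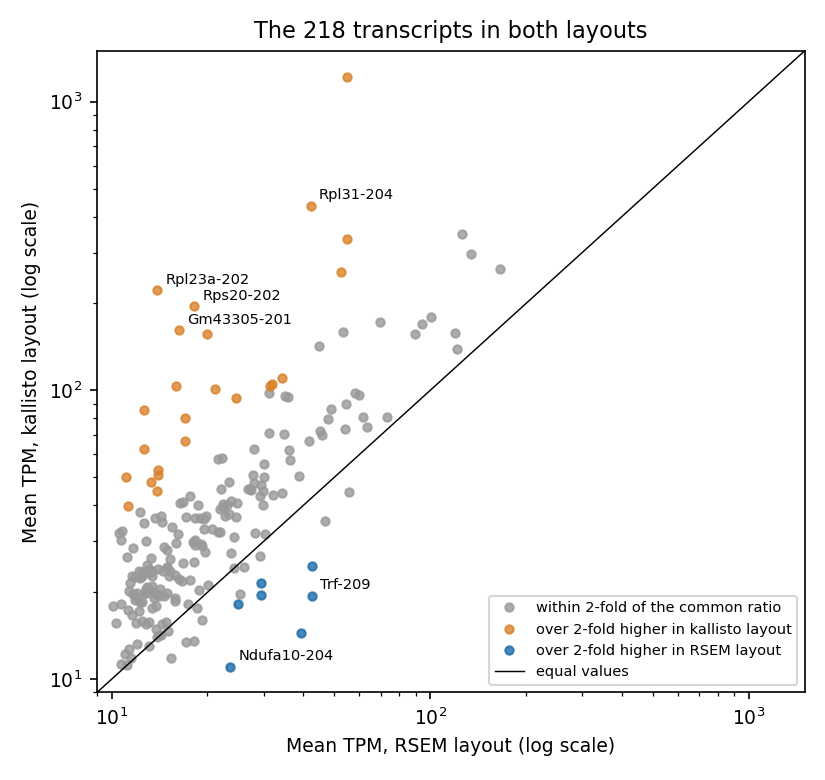
Mean TPM of the 218 members in the RSEM layout (x axis) and the kallisto layout (y axis), both on log scales. Coloured points are over 2-fold from the ratio common to all transcripts in both libraries, 24 higher in the kallisto layout and 7 in the RSEM layout. Rpl31-204 lies at 434 and 438 TPM in the kallisto layout, far above equal values.

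The layouts differed most for short models. The median absolute log2 ratio after removing the shift was 0.61 in 54 members under 600 bases, 0.32 in 101 members of 600 to 2000 bases and 0.18 in 63 longer ones. It was 0.20 in the 57 members that held a whole coding intron, of which 2 were over 2-fold apart. By bases of their own there was no steady order, with 0.28 under 5%, 0.40 from 5 to 30% and 0.22 at 30% or more. What drives these differences was not tested.

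Members also lay across other genes. In 30 of 218, an exon base was shared with a gene on the opposite strand, against 9.36% of the other models, and in 13 with another gene on the same strand, against 4.86%. Among the transcripts named here these are A330023F24Rik-204, Carmil2-201, Chchd10-202, Mrps26-201, Ppp1r14b-202, Prelid1-202, Rpl23a-202, Srgap3-201, Srsf2-203, Stk25-204, Taf10-202 and Tnpo2-205 on the opposite strand. The strand setting of the counting is not given in the sources used here, so reads from such a neighbour may have been counted in these members.

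Apart from Gria2, 17 hosts had 2 members each. In Stk25, a kinase gene, Stk25-204 had 41.5 and 41.7 TPM and Stk25-205 had 35.7 and 33.1. In Cpne6, from the copine family of calcium-dependent membrane-binding proteins, Cpne6-206 had 24.1 and 20.6 TPM and held 6 annotated introns, and Cpne6-205 had 17.6 and 17.7 and held 2. The others included Clptm1, Cttnbp2, Eno2, Gpi1, Hnrnpa2b1, Hnrnpl, Kctd17, Ly6h, Ndrg4, Nos1ap, Rps20, Sh3glb2, Snrnp70 and Srrm2. Members of 1 gene divide the reads of that gene, so their estimates are not independent.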

How the data were processed

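Deposited transcript tables of 2 layouts per library were used, named here by the column layout of RSEM and of kallisto per the file headers. From the RSEM layout came expected counts, TPM, FPKM, posterior mean TPM, the percent of the gene per transcript (IsoPct) and signal-like interval bounds of TPM, all as the authors deposited them. From the kallisto layout came estimated counts and TPM, as deposited. Expected counts and TPM of the deposited gene tables gave depth, markers and gene levels. TPM is corrected for effective length and sums to 1000000 in a library. Coordinates are on mm10 with GENCODE M21 models, per notes deposited with the files. The strand setting is not given in the sources used here, nor are the aligner, program versions and interval level. Models overlapping each other share reads, so levels depend on how the authors' programs divided them.

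Members had type retained_intron and TPM of at least 10 in both libraries and both layouts. Introns were read against protein_coding transcripts of the gene, and overlap within the gene against all its transcripts. The comparison models are the 13167 other retained_intron transcripts of genes at 10 TPM or more in both libraries. Library ratios are replicate 2 over replicate 1 of RSEM-layout TPM without a pseudocount. Layout ratios are kallisto over RSEM, and calls over 2-fold were made after subtracting the median of all 6898 transcripts at the TPM rule in each library. No test was run.

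Members and gene lists were chosen with earlier results of these data known. Named transcripts are the 12 highest by TPM and by IsoPct, the 12 highest leaders, the 5 largest library and layout differences in each direction, list members, hosts with several members and those next to the minimum; Cox7b-203, Arglu1-204, Taf10-202, Mrps25-201, Ndufb4-202 and transcripts outside the members were added after their values were seen. Some transcripts that this rule names are not reported here. The measures of transcript ends, of coding length and of held introns that are exon in another coding transcript were also added then. Sequences are those of GENCODE M21 transcripts. Alternatives included other minimums, single layouts and libraries, posterior mean TPM, FPKM, count shares, TMM scaling of expected counts rounded to whole numbers with edgeR 4.0.16 under R 4.3.3, and other definitions of intron and overlap. Python 3.11.15, pandas 2.3.3 and numpy 2.4.6 were used.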

Additional observations from a re-analysis of the deposited data

How the results depend on the processing

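Counting members at a TPM minimum of 5 gave 600 and at 20 gave 79, and the RSEM layout alone gave 335, the kallisto layout alone 795 and an FPKM minimum of 10 gave 141, beside 218 as reported. With replicate 1 or 2 left out the count was 246 or 261.

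The median IsoPct of 23.8 became 17.3 at a minimum of 5, 29.5 at 20, 21.9 as kallisto-layout share, 11.9 as share of expected counts, 23.04 from posterior mean TPM and 27.9 as a mean, and 23.2 or 23.6 with 1 library left out. The 55 leaders became 85 at 5, 22 at 20, 35 in both layouts and 26 by expected counts, and 56 to 62 with 1 library left out.

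The 6 members over 1.5-fold apart between libraries became 22 at a minimum of 5, 1 at 20, 12 in kallisto-layout TPM, 2 in both layouts and 0 at 2-fold. Of the same 6, Ttyh1-211 and Kctd17-207 fell inside 1.5-fold with TMM-scaled expected counts. None changed direction under TMM or median-of-ratios scaling, kallisto-layout TPM, a pseudocount of 1 or posterior mean TPM.

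The median log2 layout ratio of 0.72 became -0.17 on counts, 0.076 after centring on all transcripts and 0.36 for members by the RSEM layout alone, and lay between 0.68 and 0.76 with 1 library left out. The 31 members over 2-fold apart between layouts became 78 at a minimum of 5, 11 at 20, 58 uncentred, 63 at 1.5-fold and 6 at 4-fold, and 38 or 39 with 1 library left out.

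The 57 members with a whole intron became 185 at a minimum of 5, 15 at 20 and 88 with at least 50% of an intron. The median of bases of their own, 13.8%, became 16.5% at 5, 13.1% at 20, 18.8% against protein_coding transcripts alone, 18.2% against transcripts of other types and 20.8% as a mean. The cause of these shifts was not tested. No paired analysis was possible because there was 1 group and no contrast. The members had a median of 515 expected counts, and reads without molecular identifiers carry more than counting error.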
